A study of Mus musculus with 12 samples.

Results

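The genes for 8 secreted ADAMTS metalloproteinases, *Adamts1*, *Adamts2*, *Adamts4*, *Adamts5*, *Adamts7*, *Adamts9*, *Adamts12* and *Adamts15*, were followed through the stromal cells of mouse joints. They were taken by symbol from the 27998 genes of the count matrices, in which all 8 were found, and 11 further ADAMTS genes of the files were not members. The cells came from hind limb joints of wild-type C57BL/6 mice, males of 8 to 10 weeks, in serum transfer-induced arthritis (STIA), in which serum of arthritic K/BxN mice is injected into a vein and the joint inflammation that follows subsides. Single-cell RNA sequencing (scRNA-seq) had been run on 12 libraries of sorted live CD45-negative cells, 3 under each of 4 labels, which were rest (day 0), peak (between days 7 and 9), resolving (on day 15) and resolved (on day 22). Every library held cells from the joints of 3 animals digested with collagenase, so n counts pools and p-values measure the spread between them. The libraries share genotype and model. CD45 marks immune cells, and the sort leaves fibroblasts, vessel cells, and cells of bone, cartilage and tendon.

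ADAMTS enzymes are released as inactive precursors, are activated by furin-like convertases, and bind the matrix through thrombospondin-type repeats. They are grouped by substrate. ADAMTS1, ADAMTS4, ADAMTS5, ADAMTS9 and ADAMTS15 cut the large proteoglycans aggrecan and versican, and ADAMTS4 and ADAMTS5 are the main aggrecanases of cartilage in arthritis. ADAMTS2 removes the amino-terminal propeptide of fibrillar procollagens, and ADAMTS7 and ADAMTS12 cut cartilage oligomeric matrix protein (COMP). TIMP3 is their best-known inhibitor, and the receptor LRP1 clears several of them from the tissue.

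On GRCm38 (GENCODE M21), *Adamts1* (chr16:85793827-85803113) and *Adamts5* (chr16:85856173-85901828) lie 53059 bp apart on the minus strand with 0 protein-coding genes between them. *Adamts9* (chr6:92772699-92943492) and *Adamts15* (chr9:30899155-30922452) are on the minus strand as well. *Adamts4* (chr1:171250421-171260637), *Adamts2* (chr11:50602084-50807573), *Adamts7* (chr9:90163069-90208071) and *Adamts12* (chr15:11064790-11349231) are on the plus strand. *Adamts7* overlaps *Tbc1d2b* on the opposite strand, and *Adamts2* and *Adamts9* each overlap 3 gene models there. How the counting treated strand is not given in the sources used here, so reads are uncertain where gene models overlap.

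RefSeq promoters on GRCm38.p6 were at hand for 4 members. The 250 bases before the start are shown for 3 of them, since *Adamts1* and *Adamts9* were high in vessel-wall cells and *Adamts2* was highest in the matrix-forming cells. Capitals mark TATAAA and GGGCGG on either strand, and TGACTCA was searched on both strands as well.
Adamts1: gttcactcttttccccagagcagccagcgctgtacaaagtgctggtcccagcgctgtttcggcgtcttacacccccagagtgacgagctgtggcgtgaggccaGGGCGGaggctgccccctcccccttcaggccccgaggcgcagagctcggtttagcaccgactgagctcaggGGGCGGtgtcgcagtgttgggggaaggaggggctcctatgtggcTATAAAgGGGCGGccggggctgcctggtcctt
Adamts9: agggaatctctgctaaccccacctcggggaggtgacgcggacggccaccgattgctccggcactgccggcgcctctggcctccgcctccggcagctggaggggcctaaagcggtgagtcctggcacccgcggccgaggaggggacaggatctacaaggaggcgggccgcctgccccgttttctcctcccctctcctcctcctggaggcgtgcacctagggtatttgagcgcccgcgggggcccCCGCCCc
Adamts2: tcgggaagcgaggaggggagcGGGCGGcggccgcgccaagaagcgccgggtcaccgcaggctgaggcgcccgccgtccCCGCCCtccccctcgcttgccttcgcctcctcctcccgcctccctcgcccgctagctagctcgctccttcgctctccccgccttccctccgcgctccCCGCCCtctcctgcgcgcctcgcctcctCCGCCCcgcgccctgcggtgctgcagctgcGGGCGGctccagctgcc
The *Adamts1* sequence (chr16:85803114-85803363, minus strand) held TATAAA once, beginning 32 bases before the start, and GGGCGG 3 times. The *Adamts9* sequence (chr6:92943535-92943784, minus strand) held GGGCGG 1 time, and the *Adamts2* sequence (chr11:50601835-50602084, plus strand) 5 times, neither with TATAAA. Across 32851 promoter windows of this length, 12.4% held TATAAA, 32.7% GGGCGG and 4.46% TGACTCA, which none of these 3 windows held. *Adamts12* had none of these motifs, and *Adamts4*, *Adamts5*, *Adamts7* and *Adamts15* had no entry.

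After quality control 20060 of 21042 deposited cells were kept, with 7468914 to 16566202 unique molecular identifiers (UMIs, the tags of single captured RNA molecules) per library, 0 barcodes shared by libraries, and the same median of 5358 UMIs per deposited cell in every library. The original depth of each library is therefore not known from these counts. Cells fell into 27 clusters, which were named from fixed markers as fibroblast-like (11887 cells, 59.3%), vascular endothelial-like (1769), tenocyte-like (1729), osteoblast-like (1385), perivascular-like (655), proliferating (610), chondrocyte-like (312), muscle-like (267), lymphatic endothelial-like (186), immune-like (112), Schwann-like (81) and erythroid-like (61). The suffix "-like" is left out below, and 1006 cells stayed unnamed. The 8 genes and their relatives took no part in the clustering. Libraries did not group by label. Barcodes carry a numeric suffix for their library. When suffixes are taken in blocks of 3, the fibroblast sum nearest to each library came from its own block for 12 of 12 libraries, and from its own label for 0 of 12. A stage named here is what the label says, and the blocks, called runs, are used beside it (run 1, rest 1, peak 1 and resolving 1; run 2, resolved 1, rest 2 and peak 2; run 3, resolving 2, resolved 2 and rest 3; run 4, peak 3, resolving 3 and resolved 3). Between runs, the 7 fibroblast markers together ranged from 17366 to 24996 CPM (defined next) in fibroblasts of runs 2 and 3 and from 44620 to 70303 in runs 1 and 4.

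UMIs were summed per library and population, levels are given as CPM, the UMIs of a gene scaled to a fixed total for each population and library, and differences as log2 fold changes with their standard error (SE) from edgeR's quasi-likelihood test. A gene was past the threshold when its Benjamini-Hochberg adjusted p was below 0.05 and its log2 fold change exceeded 0.5 in either direction. Because UMIs come from the 3′ end of transcripts, levels of different genes were not compared.

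*Adamts1*, *Adamts4* and *Adamts9* were higher in perivascular and vascular endothelial cells than in fibroblasts, while *Adamts5* was lower in both, in every one of 12 libraries. *Adamts2* was higher in fibroblasts than in endothelium, cartilage or muscle. Of 48 results, those of 6 members in 8 cell types, 29 were past the threshold, 20 with the higher level in fibroblasts and 9 with the lower one. *Adamts7* and *Adamts12* were below the filter on low counts. The members are set against the rest of the genes type by type, since many genes differ between cell types. In perivascular cells 5 of 6 members were called (40.6% of 10307 genes), in vascular endothelium 6 of 6 (53.3%), in osteoblasts 4 of 6 (28.3%), in chondrocytes 4 of 6 (46.8%), in lymphatic endothelium 3 of 6 (38.8%), in muscle 4 of 6 (38.4%), in proliferating cells 3 of 6 (26.2%) and in tenocytes 0 of 6 (17.5%). In tenocytes the lowest unadjusted p was 0.037, that of 1 member, against 3535 genes under 0.05, and DESeq2 called 0 members too. At Leiden resolution 0.5, *Adamts15* was called there (log2 1.11, adjusted p = 0.0013, edgeR).

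**Figure D1:**
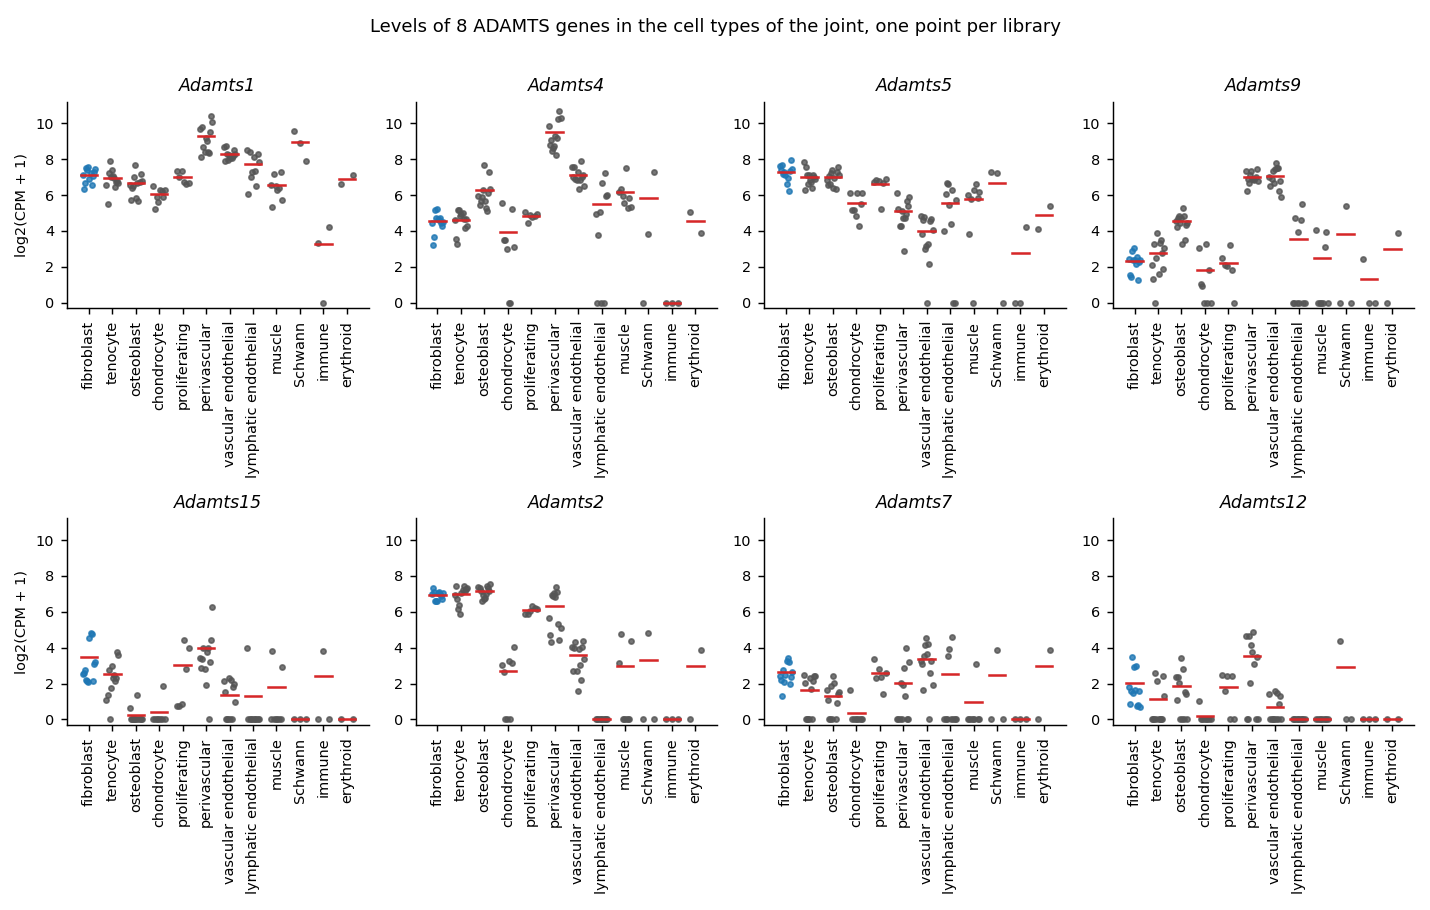
Level of each gene by cell type, 1 point per library on a log2(CPM + 1) axis, with fibroblasts in blue and a red bar at log2(mean + 1). *Adamts4* stood highest in perivascular cells (303 to 1659 CPM) and *Adamts9* in both vessel-wall types (58.0 to 217 CPM), while *Adamts5* was at 73.9 to 251 CPM in fibroblasts and at 0 to 27.4 in vascular endothelium.

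*Adamts4*, a main aggrecanase, was highest in perivascular cells. In perivascular cells, which wrap small vessels and were marked here by *Myh11*, *Acta2*, *Rgs5* and *Higd1b*, its level was 303 CPM in the lowest, 567 in the median and 1659 in the highest library. Fibroblasts had 8.17, 22.4 and 36.8 CPM. The ranges did not overlap, nor did those of 8.54% of genes, and the level was 24.5-fold lower in fibroblasts (log2 −4.62 ± 0.22 SE, adjusted p = 3.9e-34, edgeR, lower in 12 of 12 libraries). Vascular endothelium had 79.4, 128 and 235 CPM, below every perivascular value, a separation that was not counted over all genes. It was above every fibroblast value, where 19.7% of genes did not overlap (log2 −2.32 ± 0.21, adjusted p = 2.6e-17, edgeR). Osteoblasts, the bone-forming cells, had a mean of 76.8 ± 51.8 CPM (SD, n = 12), above fibroblasts by the same test (log2 −1.53 ± 0.22, adjusted p = 1.1e-08). Muscle cells had 71.8 ± 47.1 CPM (n = 8) and were past the threshold as well (log2 −1.14 ± 0.46, adjusted p = 0.037), a call lost without any of the libraries peak 1, resolving 1, rest 1, rest 2 and rest 3 (adjusted p 0.067 to 0.099). Tenocytes (23.8), proliferating cells (27.8), lymphatic endothelium (44.8) and chondrocytes (14.7 CPM) were not past the threshold against fibroblasts.

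The share of cells with an *Adamts4* UMI was 58.0% of 655 perivascular cells (95% Wilson interval 54.2% to 61.7%). It was 21.9% of vascular endothelial cells, 24.6% of osteoblasts, 10.9% of fibroblasts and 0.893% of 112 immune cells, the last from 1 cell. Median depths were 3883 UMIs per cell for perivascular, 3176 for vascular endothelial, 5790 for fibroblast and 3719.5 for immune cells. Thinned to 2000 UMIs, the shares were 46.1% for perivascular cells, 14.5% for vascular endothelial cells, 11.7% for osteoblasts and 3.95% for fibroblasts. Intervals cover counting error only.

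Within perivascular cells the libraries were not alike. *Adamts4* was at 1212 CPM in peak 3, 1659 in resolving 3 and 1278 in resolved 3, the libraries of run 4, and between 303 and 938 in the other 9. How many genes set run 4 apart in perivascular cells was not counted. In its perivascular cells the smooth muscle markers *Acta2* and *Myh11* together were at 9516 to 11493 CPM, against 5786 to 15773 in the other runs. The 20 dissociation and immediate early genes were at 27176 to 35627, between the 36178 to 39742 of run 1 and the 19606 to 21034 of run 2. The part of either in the *Adamts4* level was not tested.

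*Adamts1*, a versican-cutting enzyme known from ovulation and vessel growth, was also highest in perivascular cells. Perivascular cells had 283, 544 and 1352 CPM in the lowest, median and highest library, vascular endothelium 239, 295 and 426, and fibroblasts 80.0, 143 and 189. Neither vessel-wall range overlapped that of fibroblasts, as for 8.54% of genes in perivascular cells and 19.7% in vascular endothelium. The level was 3.52-fold lower in fibroblasts than in perivascular cells (log2 −1.81 ± 0.15, adjusted p = 4.9e-19, edgeR) and 1.85-fold lower than in vascular endothelium (log2 −0.88 ± 0.15, adjusted p = 1.1e-07). Against osteoblasts (101 ± 42.6 CPM), chondrocytes (64.9 ± 17.2) and muscle (92.2 ± 40.1) fibroblasts were higher, by 0.64, 0.97 and 0.92 on the log2 scale. The osteoblast result fell to 0.49 with DESeq2, under the fold limit. Lymphatic endothelium, at 214 ± 108 CPM, was not past the threshold. Its fitted difference of 0.10 ± 0.20 (adjusted p = 0.73) had the sign opposite to the mean CPM, in a comparison where the median over all genes was 0.30, and it was past the threshold after removal of doublet candidates (0.74). Schwann cells, found in 3 libraries with at least 10 cells, had 236, 483 and 773 CPM, all above the fibroblast range, and were not tested. How many genes were apart in this way between these types was not counted.

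*Adamts9*, which cuts versican and is known from the vessels and heart of the embryo, was highest in the vessel wall. Vascular endothelium had 58.0, 124 and 217 CPM and perivascular cells 73.8, 120 and 174, with vascular endothelium higher in 6 of 12 libraries, so the order of these 2 types was not set. Fibroblasts had 1.4, 4.28 and 7.24 CPM. The level was 26.3-fold lower in fibroblasts than in vascular endothelium (log2 −4.72 ± 0.16, adjusted p = 1.4e-46, edgeR) and 26.0-fold lower than in perivascular cells (log2 −4.70 ± 0.18, adjusted p = 3.0e-41). No library overlapped in either comparison, as for 19.7% and 8.54% of genes. Osteoblasts, at 22.1 ± 7.92 CPM, were the one further type above fibroblasts (log2 −2.37 ± 0.21, adjusted p = 1.3e-17, 12 of 12 libraries). The other tested types had means between 2.55 and 10.7 CPM and were not past the threshold with edgeR, while DESeq2 put lymphatic endothelium above fibroblasts as well (log2 −1.37, adjusted p = 0.025). A UMI was seen in 26.0% of vascular endothelial cells, 37.3% of perivascular cells, 2.35% of fibroblasts and 0.893% of immune cells.

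Endothelial *Adamts9* was at 91.3 to 130 CPM in run 1, 99.5 to 172 in run 2, 179 to 217 in run 3 and 58.0 to 111 in run 4, and runs other than the third overlapped. How many genes set run 3 apart in vascular endothelium was not counted. The vascular endothelial cells were of 2 clusters, one led by *Aqp7* and *Gpihbp1* and one by *Selp*, *Vwf* and *Plvap*. The *Selp* cluster had a median of 177 CPM of *Adamts9* over 12 libraries and was higher in 9 of them than the *Gpihbp1* cluster (median 92.4). Its *Adamts4* median was 172 CPM against 90.2 (higher in 8 of 12), and its *Adamts7* median 14.0 against 2.50 (9 of 12). The ranges overlapped for all 3 genes, and the difference between the clusters was not tested. The runs held these clusters in different shares. The *Gpihbp1* cluster was 0.910% to 2.33% of the cells of a library in run 3 and 9.39% to 17.5% in run 4, and the *Selp* cluster 3.39% to 3.83% and 2.38% to 2.76%. The part of these shares in the *Adamts9* level by run was not tested.

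*Adamts5*, the other main aggrecanase, had the opposite distribution. Fibroblasts had 73.9, 158 and 251 CPM, perivascular cells 6.31, 31.7 and 68.7, and vascular endothelium 0, 14.5 and 27.4. The fibroblast range lay above both, in comparisons where 8.54% and 19.7% of genes did not overlap. Fibroblasts were 5.64-fold higher than perivascular cells (log2 2.50 ± 0.21, adjusted p = 2.1e-19, edgeR) and 12.3-fold higher than vascular endothelium (log2 3.62 ± 0.19, adjusted p = 4.5e-32). They were also past the threshold over lymphatic endothelium (log2 2.23), muscle (1.72), chondrocytes (1.59) and proliferating cells (0.61, under the fold limit at 0.49 with total counts alone). Osteoblasts (127 ± 34.3 CPM) and tenocytes (129 ± 43.9) were next to fibroblasts (157 ± 47.5) in the order. The osteoblast difference of 0.42 had an adjusted p of 0.014 and missed the fold limit, and it passed at Leiden resolution 0.5 (0.59). Chondrocytes, whose aggrecan this enzyme is known to cut, had 18.7 to 68.8 CPM of *Adamts5* in 8 libraries.

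*Adamts15* was scarce, with 1047 UMIs in all kept cells. Fibroblasts had 3.23, 5.39 and 27.4 CPM and perivascular cells 0, 9.54 and 75.2. The last value, from resolved 3, rests on 9 UMIs in 28 cells. These types did not pass the threshold (log2 −0.26 ± 0.34), and fibroblasts were higher in 3 of 3 libraries of run 3 and in 1 of 9 in the other runs. Osteoblasts held 2 UMIs in 1385 cells. Fibroblasts were past the threshold over osteoblasts (log2 4.70 ± 0.55, adjusted p = 4.0e-12, edgeR), chondrocytes (4.16), lymphatic endothelium (3.24, lost with DESeq2 at 1.48), vascular endothelium (2.54) and proliferating cells (1.29, lost with DESeq2 at 1.28). It passed the filter on low counts, and so was tested, in 12 of 20 alternatives for these types and in 8 of 14 for proliferating cells. With so few UMIs in those types the fold changes depend on the prior count of the fit and are no bounds.

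*Adamts2*, the procollagen N-propeptidase, was highest in the collagen-forming types. Osteoblasts had 95.9, 142 and 185 CPM, tenocytes 57.8, 137 and 175, and fibroblasts 94.4, 126 and 159, ranges that overlapped. Vascular endothelium had 2.00, 11.7 and 20.0 CPM, below every fibroblast library, where 19.7% of genes did not overlap (log2 3.68 ± 0.22, adjusted p = 1.4e-26, edgeR). Chondrocytes (5.51 ± 5.4 CPM) and muscle (6.73 ± 10.5) were as low, 4.45 and 4.16 below fibroblasts on the log2 scale, and proliferating cells were 0.92 below. Lymphatic endothelium had 0 of 744414 UMIs in 172 cells. A count of 0 allows up to 4.03 CPM there, so fibroblasts were at least 29.9-fold higher over the summed libraries.

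The level of *Adamts2* in perivascular cells is given by run, and how many genes separate the runs there was not counted. In runs 2 and 3 it was at 114 to 163 CPM, and fibroblasts were higher in 1 of 6 libraries. In runs 1 and 4 it was at 18.5 to 49.1 CPM, and fibroblasts were higher in 6 of 6. The fit over all libraries gave fibroblasts 0.64 ± 0.19 more on the log2 scale (adjusted p = 0.0027), a call that was lost with RLE size factors (0.49), with total counts alone (0.37) and without peak 1 (0.44). It does not hold within runs 2 and 3. Fibroblast markers in the perivascular cells summed to 1873 to 2716 CPM in runs 2 and 3 and to 1722 to 5886 in runs 1 and 4. Of the 38 member results past the threshold in comparisons of populations, 27 had the same direction in every library, and 2 had the opposite direction of the means in a run, this one and *Adamts15* against lymphatic endothelium, which rests on 1 UMI in lymphatic cells.

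The COMP-cutting enzymes gave few counts, with 627 UMIs of *Adamts7* and 386 of *Adamts12* in all. *Adamts7*, known from vascular smooth muscle, had its highest mean in vascular endothelium (9.44 ± 6.74 CPM), next to fibroblasts (5.13 ± 2.48) and perivascular cells (3.09 ± 4.68). Without the filter on low counts, fibroblasts were 0.60 below vascular endothelium on the log2 scale (adjusted p = 0.036, edgeR), 1.5 above perivascular cells (adjusted p = 0.010) and 1.67 above osteoblasts (adjusted p = 9.3e-05). *Adamts12* was highest in perivascular cells, with 0, 8.88 and 27.9 CPM in the lowest, median and highest library, against 0.65, 2.02 and 10.0 in fibroblasts. Unfiltered, fibroblasts were 1.5 below perivascular cells (adjusted p = 6.3e-05) and 2.1 above vascular endothelium (adjusted p = 9.0e-05). Muscle and lymphatic endothelium held 0 UMIs of *Adamts12*, which their depth allows up to 4.10 and 4.03 CPM.

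Other genes of the pathway were counted from fixed lists. Of 6 inhibitors and clearance genes tested against perivascular cells, 3 were higher in fibroblasts and 2 lower. *Lrp1* (log2 2.91) and *Timp1* (2.58) were higher, while *Timp3* (−1.85) and *Timp4* (−5.01) were lower, and the same 2 were lower than in vascular endothelium (−1.60 and −7.22). Of 16 substrates tested, 13 were higher in fibroblasts than in perivascular cells, with decorin (*Dcn*, 4.75) and lumican (*Lum*, 4.08) in front, and *Thbs1* was lower (−2.03). *Dcn* and *Lum* are among the 7 markers by which clusters were named fibroblast, so their direction was set in part by the naming. Medians were 2.47 for the inhibitors and 2.17 for the substrates, against 0.16 for all genes. Of 6 activators and cofactors tested, 5 were higher in fibroblasts and 0 lower, and *Fbln1* on this list is a fibroblast marker as well. Of the 11 other ADAMTS genes 2 passed the filter, and *Adamts8* was lower in fibroblasts (−2.68). Of 6 ADAMTS-like genes, which lack the protease, 3 passed, 2 of them higher in fibroblasts than in perivascular cells. The dissociation and immediate early genes were divided in this comparison, with 6 of 20 higher and 4 lower in fibroblasts.

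Fibroblasts were divided into 11 clusters, of which 1 was named lining (1085 cells, *Prg4*, *Clic5*, *Htra4*) and 1 sublining (1728 cells, *Dpp4*, *Pi16*). The lining faces the joint space and makes lubricin, and the sublining lies beneath it. The order below is that of 10 clusters, since a cluster of 84 cells led by *Ifit3* had at least 10 cells in 2 libraries. All 7 members that passed the filter differed among subsets in the F test, as did 85.1% of 8593 genes. Between lining and sublining 6 of 7 were called, against 30.2% of genes. The filter asks for counts in only some of the sums, so a gene can pass it through a subset where it is high. *Adamts7*, among those called, was scarce and was tested in 16 of 18 alternatives, so its place in this count depends on the filter.

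**Figure D2:**
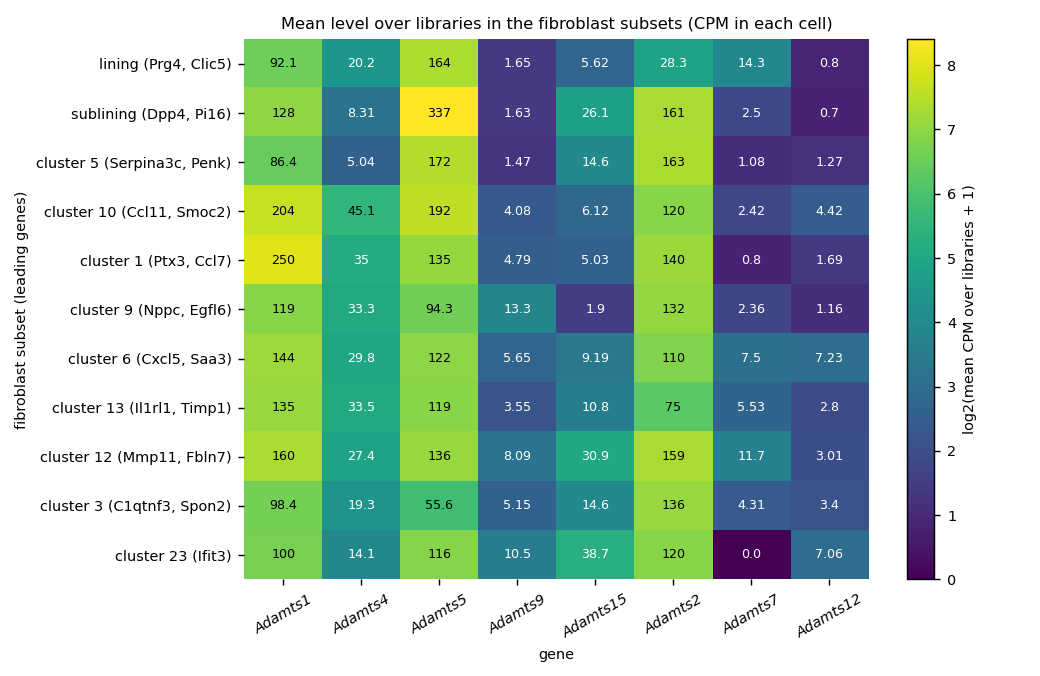
Mean CPM over libraries of each gene in 11 fibroblast subsets, printed in each cell and coloured by log2(mean CPM + 1). *Adamts2* was lowest in the lining (28.3 CPM) and *Adamts5* highest in the sublining (337 CPM), and *Adamts7* had its highest mean over libraries in the lining (14.3 CPM).

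For *Adamts2* lining and sublining did not overlap. The lining had 14.2, 27.4 and 53.6 CPM in the lowest, median and highest of 12 libraries, and the sublining 109, 165 and 208. Every sublining library was above every lining library, which 6.32% of genes showed in either direction, and the lining was 5.21-fold lower (log2 −2.38 ± 0.13, adjusted p = 1.5e-31, edgeR). The lining was the lowest subset. Next above it was a cluster led by *Gjb5* and *Il1rl1*, with 57.4 to 97.8 CPM in the 6 libraries of runs 2 and 3. The lining range lay below that of this cluster, a separation that was not counted over all genes. The other subsets had means from 110 to 164 CPM with ranges that overlapped.

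*Adamts7* was distributed the other way. The lining had 4.30, 14.8 and 26.6 CPM and the sublining 0, 2.16 and 5.75. It was higher in the lining in 12 of 12 libraries with ranges that overlapped at their ends (log2 2.51 ± 0.32, adjusted p = 6.2e-11). Next to the lining in the order was a cluster led by *Mmp11* and *Acp5*, at 11.7 ± 9.72 CPM in 6 libraries, which overlapped it. Summed over all libraries, that cluster had 16.5 CPM (79 UMIs) and the lining 14.0 (125 UMIs), so the order of these 2 was not set. The remaining subsets had means from 0.80 to 7.50 CPM.

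*Adamts4* was also higher in the lining in 12 of 12 libraries, with 8.06, 19.5 and 36.5 CPM against 0.81, 6.97 and 17.7 (log2 1.5 ± 0.31, adjusted p = 2.9e-05). The lining did not lead the order. A cluster led by *Ccl11* and *Smoc2* had 45.1 ± 36.5 CPM, and 5 further subsets had means from 27.4 to 35 with overlapping ranges.

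*Adamts5*, *Adamts15* and *Adamts1* were lower in the lining than in the sublining, but the lining was the lowest subset for none of them. With cells of all libraries summed, *Adamts5* was lower in the cluster led by *C1qtnf3* and *Spon2*. *Adamts15* was lower in the one led by *Nppc* and *Egfl6*, and *Adamts1* in the one led by *Inmt* and *Serpina3c*. *Adamts5* had 74.5, 162 and 243 CPM in the lining and 207, 324 and 484 in the sublining, where it was the highest of all subsets (log2 −1.01 ± 0.12, adjusted p = 1.1e-11, edgeR, 11 of 12 libraries, with peak 1 the exception). *Adamts15* had 0, 2.53 and 16.5 CPM in the lining and 5.21, 19.0 and 86.3 in the sublining (log2 −2.16 ± 0.31, adjusted p = 3.7e-09, 12 of 12 libraries). The 3 highest values of both were those of run 3, and the direction held within every run. *Adamts1* had 36.6, 99.2 and 130 CPM in the lining and 82.8, 139 and 177 in the sublining (log2 −0.56 ± 0.13, adjusted p = 2.5e-04, 11 of 12 libraries, with rest 3 the exception). Without peak 1 or rest 1 the *Adamts1* difference fell under the fold limit, at −0.49 and −0.48. *Adamts1* was highest in the cluster led by *Ifi205*, *C4b* and *Ptx3*, at 250 ± 61.6 CPM.

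*Adamts9* did not pass (log2 0.20 ± 0.54), with means of 1.65 CPM in the lining and 1.63 in the sublining. Its highest subset was a cluster led by *Nppc* and *Egfl6*, at 13.3 ± 9.11 CPM. *Adamts12* was below the filter in this comparison and was at 7.23 ± 5.16 CPM in a cluster led by *Cxcl5* and *Saa3*, the highest of its subsets, with ranges that overlapped those of the others.

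**Figure D3:**
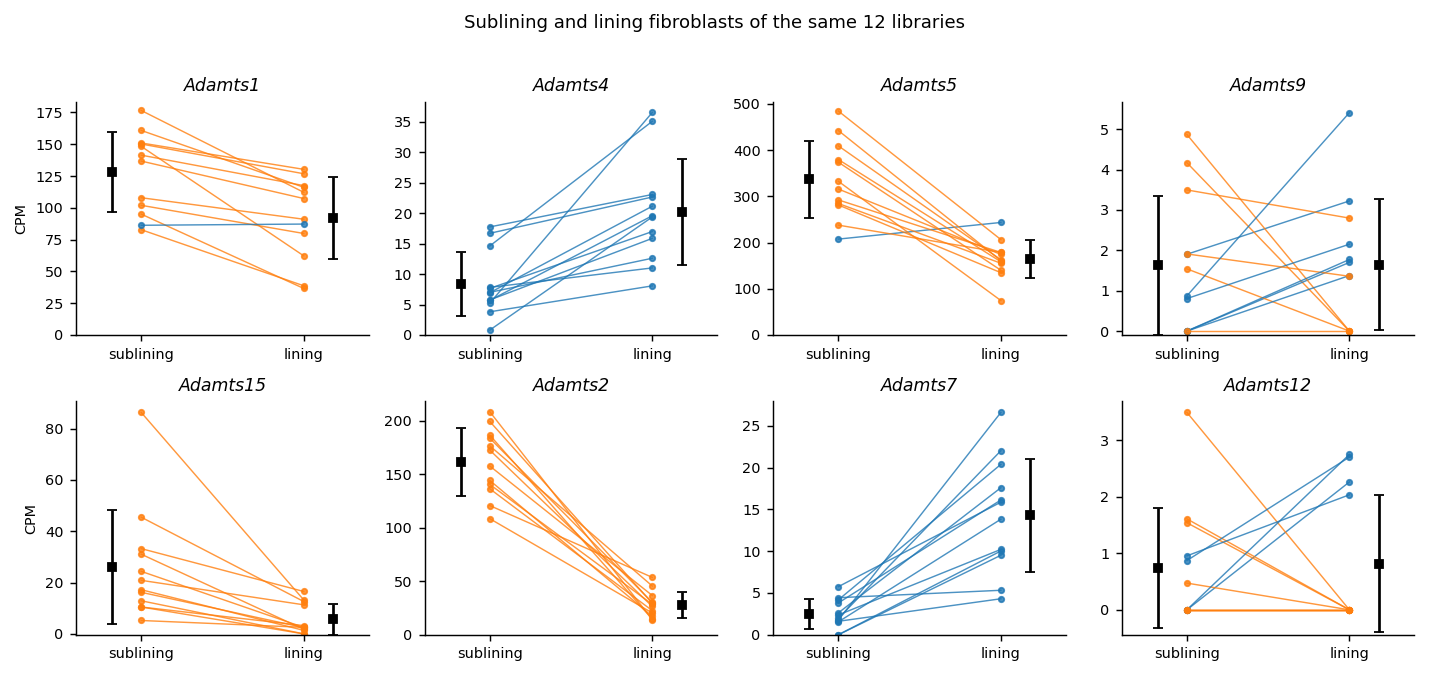
CPM in sublining and lining fibroblasts, joined by a line for each library (blue where the lining was higher, orange where it was not), with black squares for mean ± SD over 12 libraries. *Adamts4* and *Adamts7* were higher in the lining in 12 of 12 libraries, and *Adamts2* and *Adamts15* were lower there in 12 of 12.

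The pathway lists were divided between lining and sublining as well. Of 6 activators and cofactors, 4 were higher and 2 lower in the lining. *Furin*, a convertase that activates ADAMTS precursors, was at 242 ± 113 CPM in the lining and 30.9 ± 7.39 in the sublining (log2 2.89), *Pcsk6* was higher by 1.96, and *Fbln1*, a cofactor of ADAMTS1, was lower by log2 −2.74. Of 4 inhibitors tested, *Timp1* was higher (2.68) and *Timp2* (−1.05) and *Timp3* (−2.56) lower. *Timp3* was at 51.4 ± 12.8 CPM in the lining and 301 ± 55.4 in the sublining. Of 16 substrates 1 was higher and 9 lower, with *Fbn1* (−3.36) and *Nid1* (−2.91) the lowest. Of 4 ADAMTS-like genes 1 was higher and 3 lower, among them *Adamtsl3* (−2.90) and *Adamtsl4* (−2.18). Of 4 other ADAMTS genes 0 were higher and 2 lower. The list medians were 0.98 for activators, −0.53 for inhibitors, −1.33 for substrates and −1.57 for ADAMTS-like genes, against −0.01 for all genes. Activators, cofactors and substrates could take part in the clustering, so their directions may have been set in part by it. *Pcsk6* was among the leading genes of the lining cluster, and *Fbln1* is a fibroblast marker. Of 20 dissociation and immediate early genes 0 were higher and 11 lower in the lining, and their part in the *Adamts1* difference was not tested.

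The study set *Hk2*-positive fibroblasts, with at least 1 UMI of this glycolytic enzyme, beside *Hk2*-negative ones. There were 5432 positive and 6455 negative cells, with median depths of 6223.5 and 5410 UMIs. Of 7 members tested, 3 were higher in positive cells and 0 lower, against 6.86% of 9993 genes called.

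*Adamts1* had 120, 176 and 207 CPM in positive cells and 57.5, 112 and 175 in negative cells. It was higher in 12 of 12 libraries, with overlapping ranges (log2 0.72 ± 0.07, adjusted p = 5.6e-07, edgeR). *Adamts4* had 12.1, 29.1 and 41.4 CPM against 5.91, 14.9 and 29.1 and was higher in 11 of 12 (log2 0.82 ± 0.11, adjusted p = 1.7e-05). *Adamts9* had 4.78 ± 1.82 CPM against 3.28 ± 2.08 and was higher in 9 of 12 (log2 0.66 ± 0.21, adjusted p = 0.019), a call that was lost without resolved 2 (adjusted p = 0.063). *Adamts15* was lower in positive cells in 12 of 12 libraries, with 7.84 ± 7.34 CPM against 11.8 ± 10.3. Its difference of −0.47 ± 0.10 (adjusted p = 0.0016) was under the fold limit, which it passed with total counts alone (−0.57) and without resolved 2 (−0.56). *Adamts2* (0.19 ± 0.06), *Adamts5* (0.08 ± 0.06, with the lower mean CPM in positive cells) and *Adamts7* (0.15 ± 0.14) were not past the threshold.

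**Figure D4:**
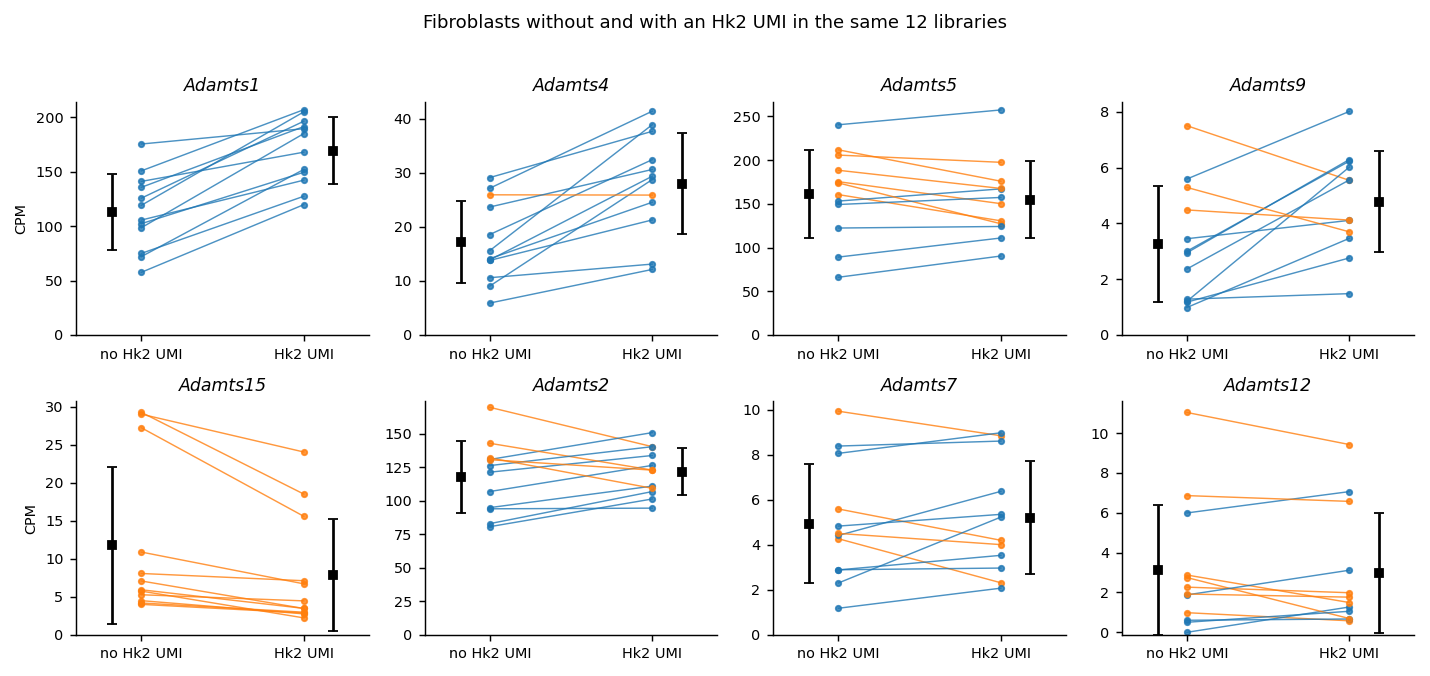
CPM in *Hk2*-negative and *Hk2*-positive fibroblasts, joined by a line for each library (blue where positive cells were higher, orange where they were not), with black squares for mean ± SD over 12 libraries. *Adamts1* was higher in positive cells in 12 of 12 libraries (mean 169 against 113 CPM), and *Adamts15* was lower in 12 of 12.

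Positive cells were not spread evenly over the fibroblast clusters, with shares from 18.8% to 69.1%. When positive and negative cells of a library were matched in cluster and UMIs (3501 cells each), 326 genes were called in place of 686. *Adamts1* was then at 171 ± 38.8 CPM against 119 ± 35.9 (log2 0.61 ± 0.06, adjusted p = 2.8e-08) and *Adamts4* at 28.1 ± 8.36 against 18 ± 9.01 (0.69 ± 0.12, adjusted p = 1.2e-04), both higher in 12 of 12 libraries. *Adamts9* was higher in 8 of 12 and, below the filter on low counts there, was not tested. Cluster by cluster, with libraries summed, positive cells had more *Adamts1* in 11 of 11 clusters, *Adamts4* in 10, *Adamts2* in 9 and *Adamts9* in 8. They had more *Adamts5* in 5, *Adamts12* in 4, *Adamts7* in 3 and *Adamts15* in 1 of 11. Some clusters held few UMIs of a gene, and these directions were not counted over all genes.

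Of the dissociation and immediate early genes, which tissue digestion is known to raise, 5 of 20 were higher in positive cells and 0 lower, with a list median of 0.43 against −0.01 for all genes. The part of dissociation in the *Adamts1* and *Adamts4* differences was not tested. Of 16 substrates, 2 were higher and 1 lower, and *Tfpi2* was at 32.2 ± 11.5 CPM in positive and 17.7 ± 11.7 in negative cells (log2 0.98). With edgeR, 0 of 4 inhibitors, 0 of 6 activators, 0 of 4 ADAMTS-like and 0 of 2 other ADAMTS genes were called, and 3, 4, 0 and 1 of them had an unadjusted p under 0.05.

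Between the labelled stages, no member passed the threshold in fibroblasts, nor did any gene. With edgeR, 0 of 8 members and 0 of 11848 genes (0%) were called for peak against rest, 0 (0%) for resolving and 0 (0%) for resolved against rest. Under an unadjusted p of 0.05 there were 91, 99 and 64 genes and 0 members, and DESeq2 called 0, 1 and 0 genes and 0 members. This fit did not include the run. With the run as a block, 0 genes were called for each of the 3 labels, and 331, 410 and 463 had an unadjusted p under 0.05. All these counts are below a 0.05 share of the genes, which is what chance gives where nothing differs. The fits were thus conservative, and 0 calls do not show that levels were the same under the labels. Whether each label belongs to its barcode suffix is not known from the sources used here. The largest member differences were *Adamts12* in resolved libraries (log2 1.84 ± 0.92) and *Adamts15* in peak libraries (−1.52 ± 0.89).

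In single libraries *Adamts5* was at 195, 154 and 73.9 CPM in the rest libraries 1 to 3, at 166, 140 and 162 at peak, at 203, 98.0 and 251 in resolving and at 145, 123 and 175 in resolved libraries. *Adamts4* was at 21.0, 25.9 and 25.9 CPM at rest, 8.17, 36.8 and 20.4 at peak, 11.5, 24.2 and 18.4 in resolving and 34.4, 23.1 and 21.7 in resolved libraries. *Adamts15* was at 4.89, 3.41 and 25.8 CPM at rest, 5.03, 3.23 and 3.45 at peak, 5.76, 22.5 and 7.52 in resolving and 3.58, 27.4 and 8.18 in resolved libraries. The labels overlapped for every one of these genes, and replicate numbers have no order within a label.

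**Figure D5:**
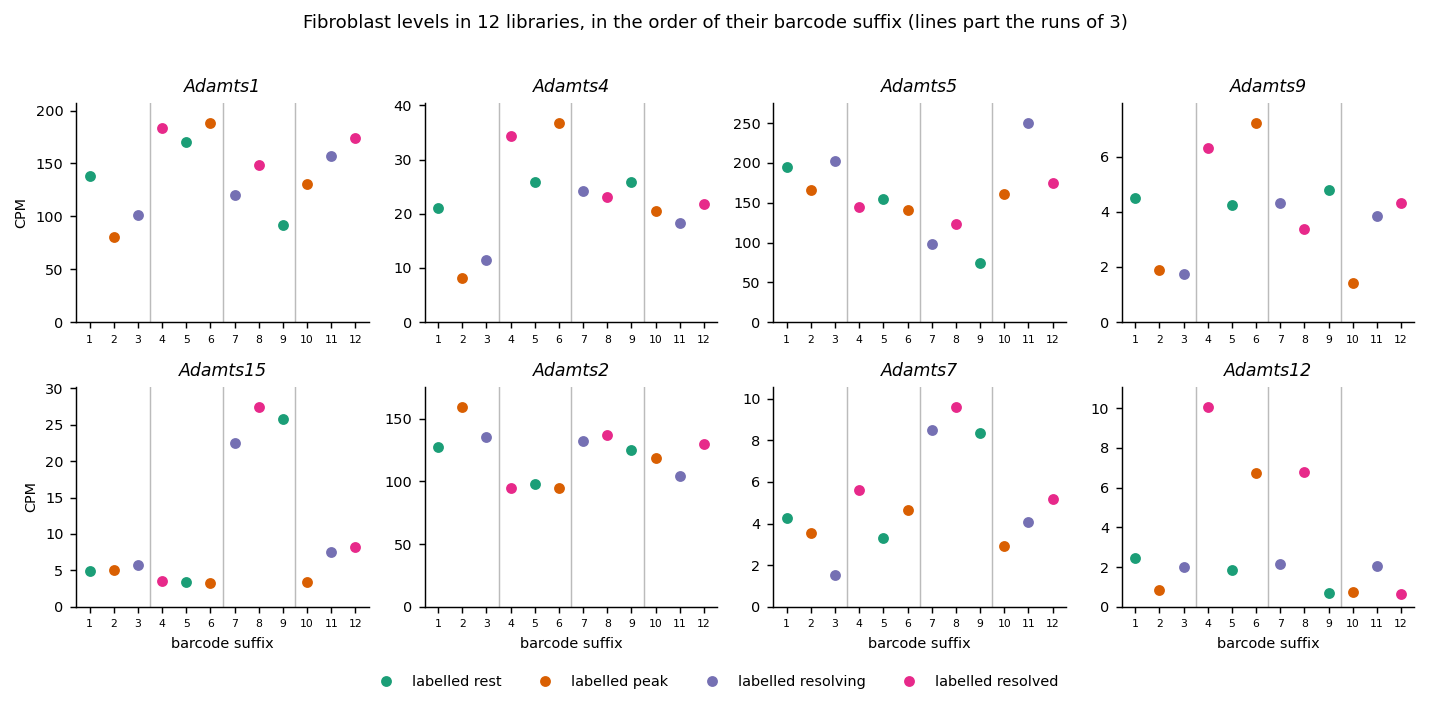
Fibroblast CPM of each gene in 12 libraries ordered by barcode suffix and coloured by label, with vertical lines between runs of 3 suffixes. *Adamts15* was at 22.5 to 27.4 CPM in the 3 libraries of run 3 and at 3.23 to 8.18 in the other 9, which carried all 4 labels.

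Ordered by run of barcode suffixes, the same libraries separated. The runs were adopted because these fibroblast sums were most alike within them, so the test over runs is a description and no independent evidence. The F test over 4 runs called 7 of 8 members, against 57.6% of 11848 genes, with adjusted p of 4.8e-07 for *Adamts15*, 7.7e-04 for *Adamts5*, 0.0018 for *Adamts4*, 0.0021 for *Adamts7*, 0.0045 for *Adamts1*, 0.015 for *Adamts2* and 0.047 for *Adamts12* (edgeR). *Adamts12* lost its call in 10 alternatives and *Adamts2* without peak 2 or resolved 1, and *Adamts9* (adjusted p = 0.064) gained one in 7. Run 3 had *Adamts15* at 22.5 to 27.4 CPM and *Adamts7* at 8.36 to 9.59, above all other libraries (3.23 to 8.18 and 1.5 to 5.62), and *Adamts5* at 73.9 to 123, below all others (140 to 251). Of all genes 10.9% set run 3 apart in this way. *Adamts2* was at 94.4 to 97.8 CPM in run 2, below all others (105 to 159), which 21.3% of genes showed. No member set run 1 or run 4 apart (6.46% and 6.83% of genes).

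The fibroblast clusters were not equally filled in the runs. Over the 6 clusters that all libraries shared, weighted alike, *Adamts15* in run 3 was at 14.6 to 32.5 CPM, against 3.31 to 13.8 in the other runs. *Adamts2* in run 2 was at 91.5 to 119.6 CPM there, against 119.9 to 150 in the other runs, so the ranges nearly touched. *Adamts5* in run 3 was at 156 to 233 CPM there, against 158 to 237 in the other runs, which overlapped, and *Adamts7* at 3.89 to 7.46 overlapped them. How many genes set a run apart after this weighting was not counted. The dissociation and immediate early genes summed to 17592 to 21205 CPM in fibroblasts of runs 2 and 3 and to 23537 to 32166 in runs 1 and 4, immune markers to 2.72 to 14.1 CPM and perivascular markers to 65.4 to 232. Their part in the differences between runs was not tested. The labels do not say what a run of suffixes is.

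For each member, the genes with the most similar pattern were sought over 24 clusters of at least 50 cells of named types, by Pearson's r of log2(CPM + 1), as a description. *Adamts4* and *Adamts9* were near each other (r = 0.86), with *Adamts9* first for *Adamts4* among 11549 genes. *Adamts2* was nearest to *Prrx1* (r = 0.96), a transcription factor of limb mesenchyme, and *Pcolce* (0.94), whose product enhances removal of the other procollagen propeptide. *Adamts5* was nearest to *Frmd6* (0.84) and *Sema3c* (0.83), *Adamts15* to *Ociad2* (0.79) and *Col14a1* (0.78), *Adamts12* to *Cyp7b1* (0.88), *Adamts1* to *Fam193a* (0.85) and *Adamts7* to *Mcoln1* (0.70). The neighbours *Adamts1* and *Adamts5* had r = 0.18 over clusters and 0.25 over the 12 fibroblast sums. Over those sums, *Adamts4* with *Adamts1* had 0.73 and *Adamts4* with *Adamts2* −0.75, where the libraries share their run and the levels share a total.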

How the data were processed

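The deposited values are whole-number UMI counts per gene and cell from 10x 3′ libraries, which the authors made with Cell Ranger on mm10. Cells with over 500 UMIs, over 500 and under 5000 genes were kept, under an upper limit of 20000 to 40000 UMIs set per library. Scrublet marked 56 cells (0.279%), too few to rely on, so its calls were not used, and as an alternative the 6% of cells with the highest scores were removed. Clustering used scanpy 1.11.5 (2000 variable genes, 30 components, 20 neighbours, Leiden resolution 1), with 30 genes (ADAMTS and related genes, TIMPs and *Hk2*) kept out. UMIs were summed per library and population with at least 10 cells and tested with edgeR 4.0.16 (quasi-likelihood, TMM, filter on low counts), with the library as a block between populations. DESeq2 1.42.0 was an alternative, as were other size factors, no filter, other clusterings and leaving out each library. Scripts were tested on simulated data.

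The members, lists and tests were chosen with earlier results of these data known. All 8 members are named. From each list, at most the 2 genes with the largest change each way, past the threshold and in 1 direction in every library, are named. Replicate numbers carry no stated pairing. Same-numbered libraries of different labels had correlations of their deviations from −0.54 to 0.68, with 11 of 18 pairs over 0.1. Totals were 7468914 to 16566202 UMIs per library, and intervals cover counting error only. Promoter sequences are RefSeq's on GRCm38.p6. Overlaps of members with other gene models are not all reported here.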

Additional observations from a re-analysis of the deposited data

Results flagged for a closer look

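In 24 sets of 4 to 10 libraries, 4 values stood far from the others. The nominal chance rate of about 1 in 20 such sets does not hold for sparse counts. There, 1 UMI beside 0 in all other libraries is flagged whatever its cause. *Adamts4* in muscle was at 183 CPM in rest 3 (7 UMIs in 15 cells), against 78.7 in the next of 8 libraries. *Adamts5* in proliferating cells was at 36.9 CPM in resolving 2 (18 UMIs in 42 cells), below the 99.5 of the next of 6 libraries. *Adamts15* in chondrocytes was at 2.59 CPM in resolving 2 and in lymphatic endothelium at 14.9 CPM in rest 1, each from 1 UMI, with 0 in the other libraries.

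A cluster of 850 cells led by *Cytl1* and *Clu* was unnamed and entered no comparison. It had *Adamts5* at 146 CPM, *Adamts2* at 96.4, *Adamts1* at 64.0, *Adamts4* at 10.7, *Adamts7* at 3.80, *Adamts9* at 1.63 and *Adamts15* at 0.723 CPM, above what a count of 0 allows there.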

How the results depend on the processing

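Of 101 member results, 16 crossed the threshold under some alternative and 0 past it reversed, while 54 values past it in neither fit changed sign. Counts of members past the threshold ranged over the alternatives from 22 to 40 for cell types (the lowest without peak 1, resolving 2 or resolved 2, the highest at Leiden resolution 0.5), 5 to 8 for any subset, 5 to 6 for lining, 2 to 4 for *Hk2* and 5 to 8 for runs. For stages they were 0 in all 23 alternatives. The number of tests differed between alternatives, since scarce members and types found in few libraries entered or dropped out. These counts are therefore not alike in their totals, and they were not set against shares of all genes. With the replicate block 0 members were called for any stage. The numbers share only a number, and 8 of 12 libraries were most alike to one of their own number. Run 1 held only libraries numbered 1 and run 4 only those numbered 3. Since the most alike library was in the same run for 12 of 12, number and run cannot be told apart there. Matching for cluster and UMIs called 326 genes by *Hk2* status in place of 686, and DESeq2 called 1 gene in place of 0 for resolving libraries. Rare members (*Adamts7*, *Adamts12* and *Adamts15*) are limited by their UMIs.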

Other observations

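*Adamts8*, not a member, had 1083 UMIs in 206 cells, and 5 cells held 620 of them (57.2%). A vascular endothelial cell of resolved 3 held 268 and the next cell 126. No member was so concentrated, with at most 30 UMIs in 1 cell, for *Adamts4*. *Adamts10* had 1743 UMIs in 1629 cells, with at most 4 in 1 cell.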
